A study of Mus musculus with 6 samples.

Results

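The 10 genes described here encode Wnt ligands (Wnt4, Wnt5a and Wnt6), Frizzled receptors (Fzd1, Fzd2 and Fzd7), the secreted inhibitor Sfrp1, the signal transducer Ctnnb1, the nuclear factor Lef1 and the target gene Axin2. They were picked by name, with the difference between genotypes in these same libraries already known, from 49671 gene rows in the count table, and all 10 were among the 18040 genes with enough counts to be tested. By mm10 they lie on chromosome 4 (Wnt4), 14 (Wnt5a), 1 (Wnt6 and Fzd7), 5 (Fzd1), 11 (Fzd2 and Axin2), 8 (Sfrp1), 9 (Ctnnb1) and 3 (Lef1). Whole testes of C57BL/6J mice aged 12 days post-partum were sequenced, 3 libraries from Ankrd31 knockout (Ankrd31-/-) and 3 from wild-type (Ankrd31+/+) animals. The labels give no treatment and do not describe the knockout allele. A further list of Wnt pathway genes, sorted by role and 96 genes long with the members included, was set up to give the members a context. It rests on textbook knowledge, but was also written with earlier results of these data known.

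Wnt proteins are secreted, lipid-modified ligands that bind Frizzled receptors together with the co-receptors Lrp5 and Lrp6. Binding stops a complex of Axin, Apc and Gsk3 kinases from marking β-catenin, the product of Ctnnb1, for destruction; β-catenin then enters the nucleus and acts with factors of the Tcf and Lef family on targets such as Axin2. In the mouse testis, Wnt5a and Wnt6 have been described as products of Sertoli cells that act on spermatogonia.

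The libraries held 21972002 to 22415062 counts in knockout and 21014060 to 22706296 counts in wild-type testes. Ankrd31 itself stood at 40.8, 33.2 and 38.0 CPM, a gene's counts relative to the TMM-scaled total of its library, in knockout replicates 1, 2 and 3, against 84.9, 52.3 and 63.2 CPM in wild-type replicates 1, 2 and 3; the counts cover the whole gene. Markers of Sertoli cells, summed over 10 genes, reached 6400 to 6950 CPM in knockout and 5920 to 6840 CPM in wild-type libraries. Clu alone, at 3761 to 4437 CPM, made up most of that sum. Amh stood at 198.9, 226.7 and 184.3 CPM in knockout and 218.9, 335.5 and 198.5 CPM in wild-type replicates 1, 2 and 3. Sox9, Gata4, Wt1, Dhh, Inha and Fshr were also highest in wild-type replicate 2, while Clu, Cldn11 and Rhox5 were highest in a knockout library. In marker sums 2 libraries stood apart. The 7 markers of epididymis and rete summed to 9.61 to 13.9 CPM in knockout libraries, against 8.24, 12.6 and 60.3 CPM in wild-type replicates 1, 2 and 3. Of these 7 markers, 6 had a lower mean in knockout; Crisp1 had 64 counts in the knockout library numbered 3, against 628 in the wild-type library numbered 3, with no more than 3 elsewhere, Lcn9 was at 0 in every library, and Lcn8 had 2 counts, both in wild-type replicate 3. The 7 Leydig cell markers summed to 362, 766 and 254 CPM in knockout replicates 1, 2 and 3, against 340, 396 and 396 CPM in wild-type replicates 1, 2 and 3, so that knockout replicate 2 was the highest; Cyp17a1, a steroidogenic enzyme gene of Leydig cells, had 215 CPM in that library and 5.99 to 56.7 CPM in the others. Members that were high in wild-type replicate 3 are given with and without it, and the members without knockout replicate 2 are given together further on. In whole-testis RNA, fewer cells of a type and less RNA per cell cannot be told apart.

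Promoter windows of 300 bases (250 before to 50 after a start site) were found in RefSeq (GRCm38.p6) for 7 of the 10 genes, 11 windows in all; Wnt5a, Fzd2 and Sfrp1 were not matched. They were searched for CTTTGA, the core of the Tcf/Lef recognition sequence, which reads TCAAAG on the other strand. It occurred in 2 of the 11 windows (18.2%), against 16.0% of all 32851 windows. The windows with a match, of Fzd1 and of a start site inside Lef1, are shown with that of the target gene Axin2, in which these letters did not occur. The match of Fzd1 began 242 bases before the start site, and the pair in Lef1 began 180 and 120 bases before it. Capitals mark the matches, and each window is written 5′ to 3′ on the strand of its gene, which is minus for Fzd1 (chr5:4758167-4758466) and plus for Lef1 (chr3:131156044-131156343) and Axin2 (chr11:108920099-108920398).
Fzd1: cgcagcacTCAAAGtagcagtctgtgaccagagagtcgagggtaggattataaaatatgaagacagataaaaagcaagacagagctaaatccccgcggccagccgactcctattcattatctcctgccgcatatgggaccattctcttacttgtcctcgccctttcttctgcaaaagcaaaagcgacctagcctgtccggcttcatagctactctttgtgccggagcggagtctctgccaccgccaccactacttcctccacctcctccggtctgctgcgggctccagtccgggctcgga
Lef1: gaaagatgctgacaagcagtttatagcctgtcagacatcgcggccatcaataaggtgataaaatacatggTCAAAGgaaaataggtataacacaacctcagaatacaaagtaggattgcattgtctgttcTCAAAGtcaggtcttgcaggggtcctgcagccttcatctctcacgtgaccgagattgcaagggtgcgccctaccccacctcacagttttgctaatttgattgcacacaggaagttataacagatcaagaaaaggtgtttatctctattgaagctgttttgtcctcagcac
Axin2: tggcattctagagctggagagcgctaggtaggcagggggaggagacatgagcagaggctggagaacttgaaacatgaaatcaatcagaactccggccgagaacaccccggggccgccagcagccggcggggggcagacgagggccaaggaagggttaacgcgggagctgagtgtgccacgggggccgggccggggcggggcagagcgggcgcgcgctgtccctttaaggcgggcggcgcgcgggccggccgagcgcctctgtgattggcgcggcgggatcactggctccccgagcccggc

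Levels per exon length spanned a wide range among the members, and Ctnnb1 and Wnt6 led. On the scale of CPM per kilobase of exon (RPKM), averaged over all 6 libraries, Ctnnb1 was at 165 ± 6.93 (SD, n = 6 for all values in this paragraph), Wnt6 at 53.1 ± 10.1, Sfrp1 at 11.2 ± 2.74, Fzd7 at 8.37 ± 0.596 and Axin2 at 8.28 ± 0.338 RPKM. Below these lay Wnt5a at 7.67 ± 1.26, Fzd2 at 6.73 ± 1.02, Fzd1 at 4.23 ± 0.433, Wnt4 at 0.707 ± 0.165 and Lef1 at 0.651 ± 0.0695 RPKM. The ranges over libraries did not overlap between Ctnnb1 and Wnt6, Wnt6 and Sfrp1, Fzd2 and Fzd1, or Fzd1 and Wnt4. They did overlap from Sfrp1 down to Fzd2 between each neighbouring pair, and Fzd7 was above Axin2 in 3 of 6 libraries, as Wnt4 was above Lef1. Exon lengths are those of all annotated exons together, so a gene whose testis transcript uses only some of them has its level understated.

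**Figure D1:**
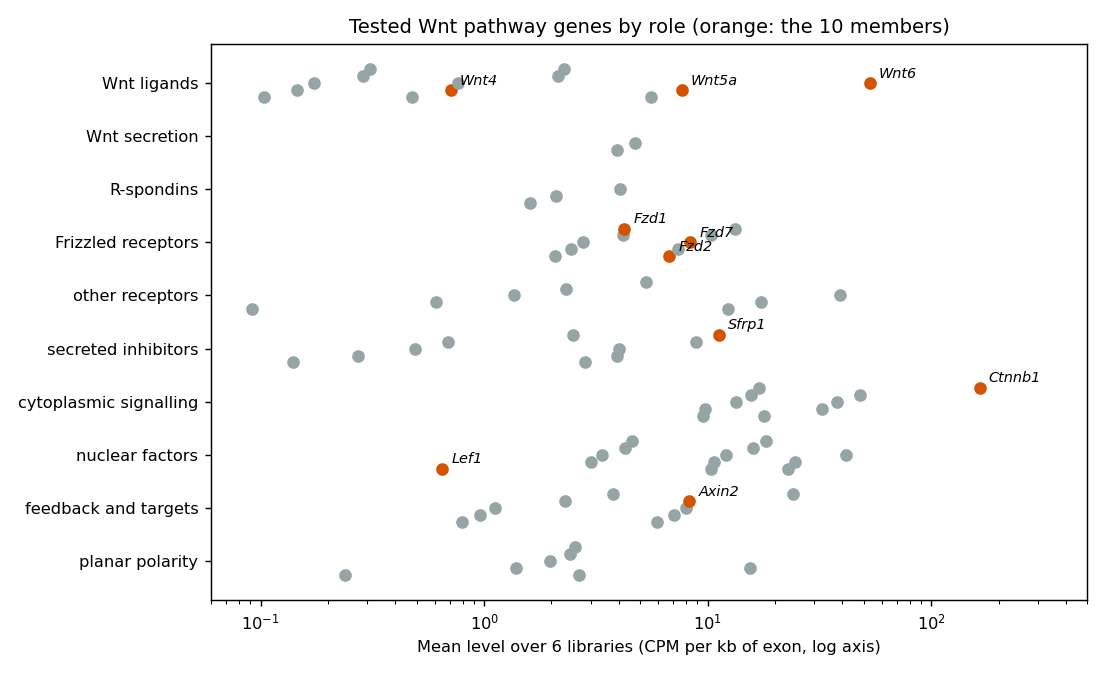
Mean level per exon length over the 6 libraries (x axis, RPKM, log scale) of the tested Wnt pathway genes, 1 point a gene, by role (y axis). Wnt6 is the highest ligand at 53.1 RPKM and Ctnnb1 the highest cytoplasmic gene at 165 RPKM, while Lef1, at 0.651 RPKM, is the lowest nuclear factor.

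Set beside the other genes of the same role, Wnt6 was the main Wnt transcript of the testis at this age. It made up 71.4% of the summed RPKM of the 19 Wnt genes (67.3% to 76.6% over the libraries), followed by Wnt5a with 10.4% and Wnt5b with 7.58%. Wnt4, which directs ovarian development, ranked 7 of 19 with 0.965%. No single receptor led in that way. Fzd3 was the highest of the 10 Frizzled genes at 13.2 RPKM, ahead of Fzd5 at 10.3 RPKM, and Fzd7, Fzd2 and Fzd1 ranked 3, 5 and 6. Sfrp1 was the highest of 13 secreted inhibitors, with 31.7% of their summed RPKM, and Frzb, another Frizzled-related Wnt-binding protein gene, followed with 25.5%. Among nuclear factors Tcf7 was at 41.7 RPKM, Tcf7l1 at 4.58 RPKM and Tcf7l2 at 3.02 RPKM, and Lef1 was the lowest of the 13 genes of that role. Axin2 ranked 2 of 10 among feedback and target genes, below the cyclin gene Ccnd1. Genes named in this paragraph for their level alone were chosen after their values were seen.

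**Figure D2:**
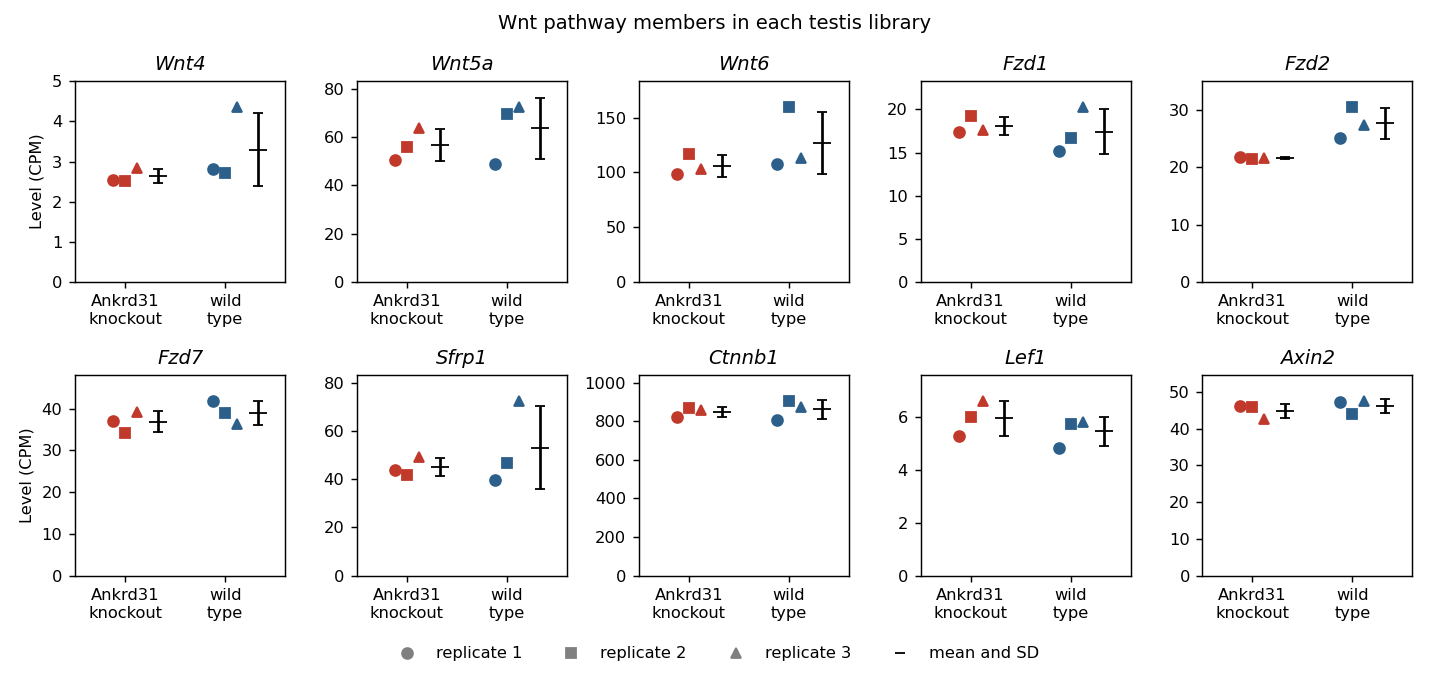
CPM of each member (y axis, from 0, own scale per gene) in the 3 knockout (left) and 3 wild-type libraries, with the mean and SD of each group. The Fzd2 values of the knockout lie between 21.5 and 21.8 CPM, below all wild-type values, while Wnt4 and Sfrp1 are each highest in wild-type replicate 3 and Wnt6 in wild-type replicate 2.

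Fzd2, a Wnt receptor gene (ENSMUSG00000050288, mm10 chromosome 11, 102604396 to 102608058, plus strand), was the 1 member whose groups were apart. It stood at 21.8, 21.5 and 21.6 CPM in knockout replicates 1, 2 and 3, against 25.2, 30.5 and 27.4 CPM in wild-type replicates 1, 2 and 3. The mean was 21.6 ± 0.145 CPM in knockout and 27.7 ± 2.67 CPM in wild type (SD, n = 3 each), so the knockout mean was 78.1% of that in wild type. This gave a log2 fold change of -0.36 ± 0.09 (SE). Per pair of libraries with the same number, the log2 ratio was -0.21, -0.51 and -0.34. By unadjusted p it had rank 11 of the 18040 genes in this contrast, and it did not pass after adjustment. The members were chosen with this contrast, so the rank describes that choice and tests nothing. Leaving out 1 library at a time kept the log2 fold change between -0.42 (without wild-type replicate 1) and -0.28 (without wild-type replicate 2), and without wild-type replicate 3 it was -0.36.

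The other receptor members overlapped between genotypes. Fzd1 had 17.4, 19.3 and 17.7 CPM in knockout and 15.2, 16.7 and 20.3 CPM in wild-type replicates 1, 2 and 3, a log2 fold change of 0.06 ± 0.12 (SE); without wild-type replicate 3 it was 0.19 ± 0.11, and without wild-type replicate 1 it was -0.03 ± 0.11. The lowest and the highest of the 6 values both belonged to wild-type libraries. Fzd7 had 37.2, 34.1 and 39.3 CPM in knockout and 41.8, 39.1 and 36.2 CPM in wild-type replicates, a log2 fold change of -0.08 ± 0.08 (SE) that ran from -0.13 (without knockout replicate 3 or wild-type replicate 3) to -0.02 (without knockout replicate 2) with 1 library left out; it was higher in knockout in the third pair and lower in the other two. Transcripts of Fzd1, Fzd2 and Fzd7 shared 0 windows of 50 bases with each other, so reads of that length or more that match one of them without mismatch would not match another.

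The ligand genes were lower in the mean of the knockout libraries, with overlapping groups, and the size of each difference moved when 1 wild-type library was left out. Wnt6 (ENSMUSG00000033227, chromosome 1, 74771892 to 74785322, plus strand) had 98.2, 117 and 104 CPM in knockout replicates 1, 2 and 3, against 107, 160 and 113 CPM in wild-type replicates 1, 2 and 3. Wild-type replicate 2 stood above the rest, and knockout replicate 2 was the highest of its group. Amh and other Sertoli markers, though not Clu, Cldn11 or Rhox5, were also highest in wild-type replicate 2. Whether this bears on Wnt6 was not tested. The log2 fold change of Wnt6 was -0.25 ± 0.15 (SE), with pair ratios of -0.13, -0.44 and -0.12. It was -0.05 ± 0.09 without wild-type replicate 2, in a fit that kept knockout replicate 2. With the whole of pair 2 left out, in the fit with replicate number as a block, it was -0.13 ± 0.06.

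Wnt5a, a ligand known mainly for signalling that does not need β-catenin, had 50.6, 55.6 and 63.5 CPM in knockout replicates 1, 2 and 3 and 48.8, 69.3 and 72.3 CPM in wild-type replicates 1, 2 and 3. Its lowest and highest values were both wild type. It had a log2 fold change of -0.17 ± 0.15 (SE) with all libraries, -0.32 ± 0.10 without wild-type replicate 1 and -0.05 ± 0.16 without wild-type replicate 3. Wnt4 was a low transcript, with 56, 55 and 63 counts in knockout and 62, 62 and 92 counts in wild-type replicates, or 2.55, 2.52 and 2.84 CPM in knockout against 2.81, 2.73 and 4.36 CPM in wild type. Only wild-type replicate 3 was clearly apart. The log2 fold change of -0.32 ± 0.22 (SE) became -0.06 ± 0.19 without that library, in which the epididymis and rete markers were also highest.

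Sfrp1, whose product binds Wnt proteins outside the cell, followed the same library. It had 43.9, 41.7 and 49.0 CPM in knockout and 39.7, 46.9 and 72.4 CPM in wild-type replicates 1, 2 and 3. The 2 other wild-type values lay within or below the knockout range, as the plot of levels shows. Its log2 fold change was -0.24 ± 0.22 (SE) with all libraries, 0.06 ± 0.11 without wild-type replicate 3 and -0.41 ± 0.18 without wild-type replicate 1. In all, 5 members, among them Wnt4, Wnt5a and Sfrp1, had their highest value in wild-type replicate 3. So did 30 of the 76 tested genes of the Wnt list that are not members (39.5%), against 16.7% of all tested genes.

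**Figure D3:**
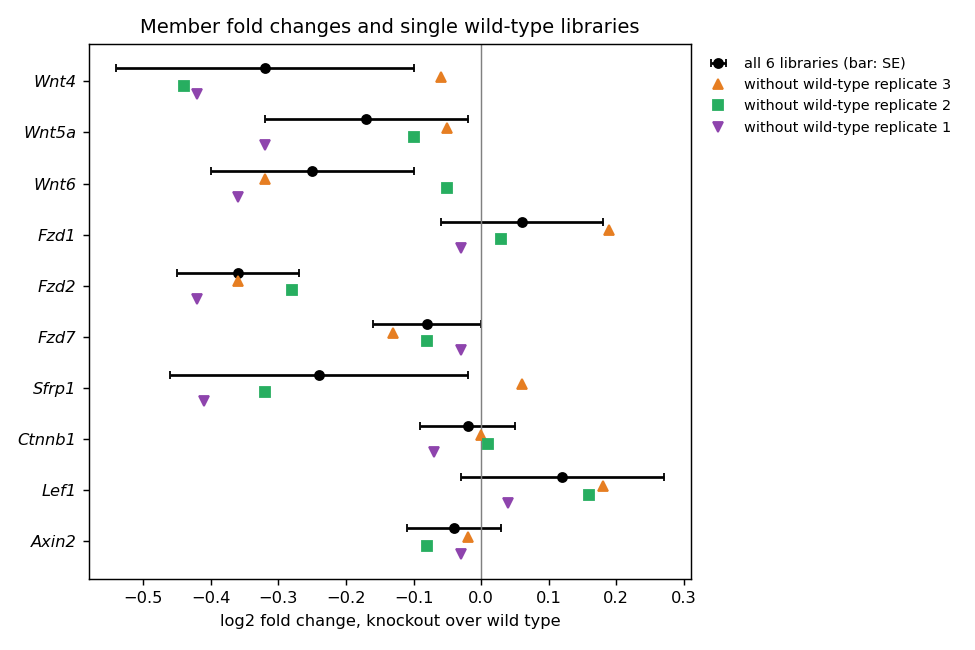
The log2 fold change of each member, knockout over wild type (x axis), with all 6 libraries (black, bar SE) and with 1 wild-type library left out (colours). Without wild-type replicate 3, Wnt4 moves to -0.06 and Sfrp1 to 0.06; without wild-type replicate 2, Wnt6 moves to -0.05; Fzd2 stays between -0.42 and -0.28.

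The intracellular members and the target gene had small log2 fold changes. Ctnnb1 had 821, 870 and 855 CPM in knockout and 807, 904 and 875 CPM in wild-type replicates 1, 2 and 3, with a log2 fold change of -0.02 ± 0.07 (SE), between -0.07 (without wild-type replicate 1) and 0.01 (without wild-type replicate 2) when 1 library was left out. Axin2, a widely used readout of β-catenin signalling whose product also limits it, had 46.2, 45.8 and 42.7 CPM in knockout and 47.2, 44.1 and 47.5 CPM in wild-type replicates. Its log2 fold change was -0.04 ± 0.07 (SE), -0.02 ± 0.08 without wild-type replicate 3, in which it was highest, and between -0.08 (wild-type replicate 2 left out) and -0.01 (knockout replicate 3 left out) over all such fits; its spread over all 6 libraries was a coefficient of variation of 4.09%. Lef1 had 5.28, 6.00 and 6.62 CPM in knockout and 4.84, 5.76 and 5.82 CPM in wild-type replicates, a log2 fold change of 0.12 ± 0.15 (SE). Lef1 was higher in knockout in 3 of 3 pairs, by 0.12, 0.06 and 0.18 on the log2 scale, as were 13.9% of all tested genes, and its groups overlapped. Its log2 fold change was 0.21 without knockout replicate 1, and 0.04 when either knockout replicate 3 or wild-type replicate 1 was left out. Antisense genes that overlap Wnt5a, Wnt6, Ctnnb1, Lef1 and Axin2 had at most 4 counts in any library, apart from the protein-coding gene Ulk4, which runs opposite to part of Ctnnb1 and had 255 to 326 counts.

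Over the 10 members the median log2 fold change was -0.124, and over all tested genes -0.005. Of the 10 members, 8 had a log2 fold change below 0, against 52.2% of all tested genes, and for 1 member all knockout libraries lay below all wild-type libraries, against 3.50% of all tested genes. With 1 library left out the median of the members ran from -0.195 (without wild-type replicate 1, with 9 of 10 below 0) to -0.035 (without wild-type replicate 3, with 7 of 10 below 0), and it was -0.096, with 8 of 10 below 0, without knockout replicate 2, the library with the highest Leydig marker sum. In edgeR's quasi-likelihood test with Benjamini-Hochberg adjustment over all genes, 0 of 10 members passed (0% of all tested genes did) and 1, Fzd2, had an unadjusted p under 0.05 (1.23% of all tested genes did on the lower side and 0.843% on the higher side). With the replicate number as a block 0 members passed (0.0443% of all genes) and 3, namely Wnt5a, Wnt6 and Fzd2, had an unadjusted p under 0.05 on the lower side (3.89% of all genes). Ankrd31, the gene knocked out, had a log2 fold change of -0.84 ± 0.17 (SE) and did not pass without the block. It passed in edgeR with the block, at an adjusted p of 0.00505. The SEs given for the members come from the fit without the block. With the block they were 0.18 for Wnt4, 0.07 for Wnt5a, 0.06 for Wnt6, 0.10 for Fzd1, 0.08 for Fzd2 and 0.07 for Fzd7. For Sfrp1, Ctnnb1, Lef1 and Axin2 they were 0.15, 0.04, 0.13 and 0.06. DESeq2 and limma voom also called 0 members. These counts describe the choice of the members, which rested on the same contrast.

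**Figure D4:**
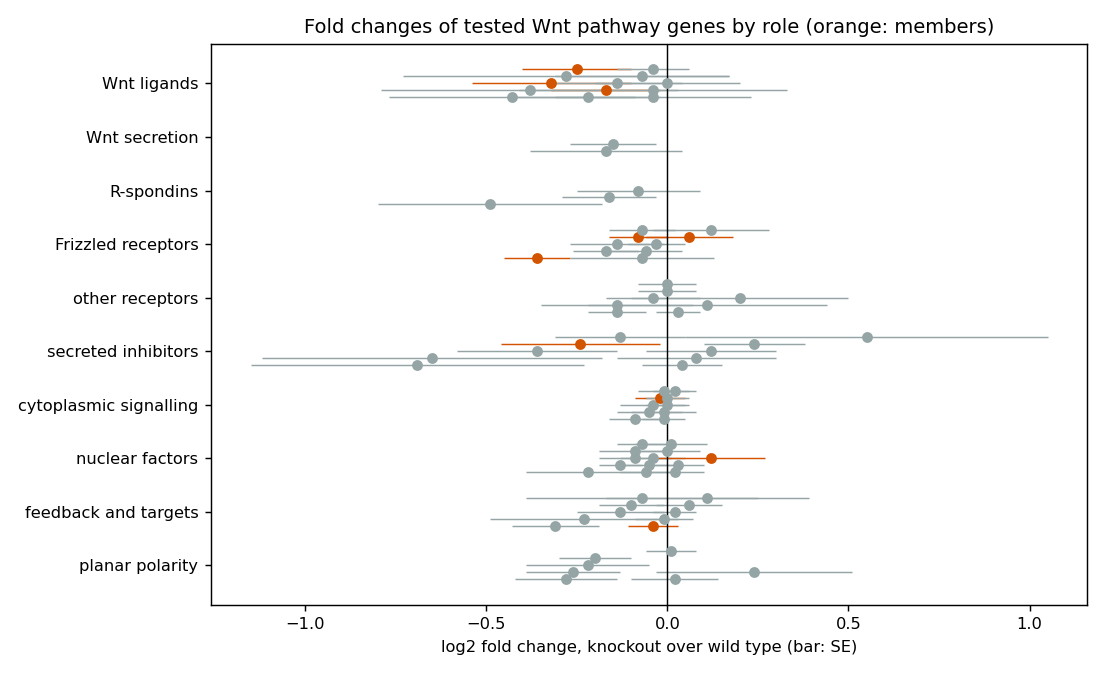
The log2 fold change, knockout over wild type (x axis, bar SE), of the 86 tested genes of the Wnt list by role (y axis), with members in orange. Of 13 tested ligand genes 12 lie below 0 (9 of 13 without wild-type replicate 3), some of them at few counts and with wide SEs. The 10 genes of cytoplasmic signalling lie close to 0, with a median of -0.011.

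Among the 96 genes of the Wnt list, 86 were tested. The other 10 were Wnt1, Wnt8a, Wnt8b, Wnt10a, Wnt10b, Wnt16, Rspo3, Dkk1, Dkk4 and Sost, whose counts were too low. None of the 86 passed in edgeR after adjustment over all genes; Fzd2 and Myc had an unadjusted p under 0.05, both lower in knockout, and DESeq2 and limma voom called 0 as well. Without wild-type replicate 1, 0 of 87 passed and 13 had an unadjusted p under 0.05, against 1531 of all 18341 genes tested in that fit. With the replicate block 0 passed in edgeR, and 13 had an unadjusted p under 0.05 on the lower side, of which 3 were members; among the 76 genes that are not members it was 10 (13.2%, against 3.89% of all tested genes), and 1 on the higher side (3.59% of all tested genes). The median log2 fold change was -0.060, with 60 of 86 genes below 0, and -0.055 with 52 of 76 below 0 when the members were left out. Under the other scalings 59, 60 and 67 of 86 were below 0, the last without TMM factors. Of all 18040 tested genes, 9105, 9416 and 10609 were below 0 under these scalings. Within pairs 1, 2 and 3 the median log2 ratio was -0.009, -0.055 and -0.074. Without wild-type replicate 3 the median was -0.010 and 47 of 88 tested genes lay below 0, without knockout replicate 1 it was -0.036 with 52 of 88, and without wild-type replicate 1 it was -0.090 with 69 of 87. For the 76 genes that are not members, the median without wild-type replicate 3 was -0.003, with 39 of 76 below 0, and without knockout replicate 2 it was -0.073, with 54 of 76. Among them 19 were lower in knockout in 3 of 3 pairs (25.0%, against 14.7% of all tested genes) and 5 were higher (6.58%, against 13.9%). Because the list was written with earlier results of these data known, these shares describe it and do not test it.

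Roles differed in their medians, with no test of that difference. The 13 tested ligand genes had a median log2 fold change of -0.165, and all but Wnt3, at 0.00 ± 0.20 (SE), lay below 0. Over all tested genes 52.2% lay below 0. Wnt2, Wnt3a, Wnt7a and Wnt9b had only 5 to 21 counts a library, with SEs of 0.34 to 0.45. Wnt2, Wnt2b and Wnt5b lay at -0.04, so the sign alone says little for such genes. The 2 genes of Wnt secretion were at -0.15 ± 0.12 for Porcn, which attaches the lipid, and -0.17 ± 0.21 for Wls, which carries Wnt proteins to the cell surface. The 3 tested R-spondin genes, whose products enhance Wnt signalling, had a median of -0.159. Frizzled genes had a median of -0.071 with 8 of 10 below 0, and co-receptors and other receptors 0.002 with 3 of 8 below 0. Secreted inhibitors had -0.044 with 5 of 10 below 0, cytoplasmic genes -0.011, nuclear factors -0.051, feedback and target genes -0.055 and planar polarity genes -0.198. Without TMM factors the co-receptor median was -0.015, and under the other scalings the medians kept their signs. With 1 library left out, the ligand median ran from -0.301 (without wild-type replicate 1) to -0.053 (without wild-type replicate 3, with 9 of 13 below 0). The Frizzled median ran between -0.123 and -0.014 in the same fits, with 5 of 10 below 0 without wild-type replicate 3. R-spondins ran from -0.219 (without knockout replicate 1) to -0.056 (without wild-type replicate 2), with -0.088 and 2 of 3 below 0 without wild-type replicate 3, and the secretion genes from -0.225 (without wild-type replicate 1) to -0.081 (without wild-type replicate 2). Without wild-type replicate 3 the median was 0.069 for secreted inhibitors, 0.032 for feedback and target genes, 0.018 for planar polarity genes, 0.066 for co-receptors and -0.030 for nuclear factors. The median of nuclear factors was 0.007 without wild-type replicate 2, that of cytoplasmic genes 0.008 without knockout replicate 1, and that of co-receptors -0.050 without wild-type replicate 2.

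Named beyond the members were the 10 list genes with the smallest unadjusted p, none of which passed in edgeR. Myc, a growth-promoting transcription factor gene and known Wnt target, had 8.79, 9.89 and 8.83 CPM in knockout replicates 1, 2 and 3, against 10.01, 11.9 and 12.3 CPM in wild-type replicates, a log2 fold change of -0.31 ± 0.12 (SE). Every knockout value lay below every wild-type value. The same held for Pygo2, a β-catenin co-activator gene, at 85.3 ± 2.42 CPM in knockout and 93.5 ± 3.31 CPM in wild type (SD, n = 3 each). It also held for the receptor gene Fzd6, at 28.7 ± 1.58 CPM in knockout and 32.3 ± 3.21 CPM in wild type. Notum, which encodes an enzyme that inactivates Wnt proteins, was the last such gene, at 1.45 ± 0.195 CPM in knockout and 1.87 ± 0.244 CPM in wild type. These were the 4 of 76 list genes outside the members (5.26%) with all knockout libraries below all wild-type libraries, against 3.50% of all tested genes, and 0 list genes lay wholly above (3.09% of all tested genes).

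The planar polarity genes Celsr1, Vangl2 and Prickle2 had log2 fold changes of -0.28 ± 0.14, -0.20 ± 0.10 and -0.26 ± 0.13 (SE), with groups that overlapped. In Celsr1 and Vangl2 the first pair was level, at 0.02 and 0.01 on the log2 scale, and the difference came from the other two pairs. The co-receptor gene Lrp5 had 49.0 ± 3.56 CPM in knockout and 54.1 ± 2.70 CPM in wild type (SD, n = 3 each) and was lower in 3 of 3 pairs. Rspo1 stood at 2.60, 2.98 and 4.51 CPM in knockout and 3.62, 3.56 and 7.01 CPM in wild-type replicates 1, 2 and 3, so that replicate 3 was the highest of each group. Frzb was the 1 gene of the 10 that was higher in knockout, at 31.2 ± 5.58 CPM against 26.4 ± 3.55 CPM in wild type, with a log2 fold change of 0.24 ± 0.14 (SE).

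Markers of the cell types of the testis varied between the libraries too. The 6 endothelial markers were lower in the mean of knockout in 6 of 6 cases and summed to 124 to 143 CPM in knockout and 133 to 168 CPM in wild-type libraries. Interstitial stroma markers were lower in 4 of 6 cases and summed to 1140 to 1330 CPM in knockout and 1100 to 1450 CPM in wild-type libraries, with the highest sum in wild-type replicate 3. Sertoli markers were lower in 6 of 10 cases. Leydig markers, lower in 4 of 7 cases, had the highest sum in knockout replicate 2, as given above. Peritubular myoid markers, lower in 1 of 5 cases, summed to 751 to 773 CPM in knockout and 703 to 777 CPM in wild type, and macrophage markers, lower in 1 of 5 cases, to 99.6 to 118 CPM in knockout and 80.1 to 116 CPM in wild type. Germ cell markers were lower in 4 of 6 cases and summed to 1630 to 1930 CPM in knockout and 1510 to 1970 CPM in wild-type libraries. The part of these cell types in the member values was not tested, beyond the values without wild-type replicate 3 or without knockout replicate 2.

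The profiles over the 6 libraries were compared with those of 12646 other tested genes that had a mean of at least 5 CPM. The measure was the root mean square difference of log2 CPM, each gene centred on its own mean. Close to Fzd2 were Spocd1 at 0.056 and Plp2 at 0.065 on the log2 scale, against a median of 0.212 over all genes compared. Closest to Wnt6 were Fez1 (0.034), Greb1 (0.037) and Slc27a3 (0.048), against a median of 0.239, and all 3 had their highest level in wild-type replicate 2. For Axin2 the closest were Txndc12 (0.008), Rgs19 (0.017) and Aar2 (0.019), against a median of 0.110.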

How the data were processed

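One table of raw counts was deposited by the authors, 1 column per library and 1 row per gene, not normalized, with a further column of summed exon lengths, per the file headers. The submitters' processing notes name bcl2fastq 2.19.1, GSNAP, featureCounts 1.6.0 and the genome build mm10; the kit was strand-specific per the labels' protocols, while how the counting treated strand and multiple matches, and from which annotation release, is not given in the sources used here. Of 49763 rows, 92 spike-in rows with 1 count in all were left out. Of 49671 gene identifiers, 49412 matched GENCODE M21, which gave symbols and coordinates, and 259 with 0.0193% of counts did not. Samples were grouped by genotype through the titles in the column names. Totals of 21014060 to 22706296 counts and a median SE of 0.113 (log2) set the precision. Replicates of one genotype differed by a chi-square of 7.355 to 12.96 per degree of freedom (genes with at least 10 counts in both libraries together), so no library was a duplicate. Nothing in the labels ties libraries to litters or days. Without the block, p-values measure the spread between these libraries. With the block they measure the spread that is left once replicate number is fitted.

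Genes were tested in R 4.3.3 with the quasi-likelihood F test of edgeR 4.0.16, two-sided and robust, after filterByExpr and TMM scaling, with Benjamini-Hochberg adjustment over 18040 genes and a threshold of 0.05. CPM used effective library sizes, RPKM divided CPM by exon length, and pair ratios used log2 CPM with a prior count of 2. Same-numbered libraries of the 2 genotypes deviated together from their group means, with correlations of 0.42, 0.26 and 0.28, where pairing asked for more than 0.1. The numbers were taken to pair the libraries on this hint from the data. The titles also end in serial numbers that run on from each wild-type library to the knockout library of the same number. What these serial numbers stand for is not given. DESeq2 1.42.0, limma 3.58.1 voom, other scalings and filters, the replicate block and fits without a library or pair were alternatives; the count of list genes below 0, and the medians of members and roles under these settings, were added after the data were seen. Counts for 18040 genes in this comparison were also simulated, with 67, 67 and 66 genes changed by 1.5, 2 and 4 fold. Of these genes edgeR recovered 61.2%, 80.6% and 97.0%, making 28 false calls. The blocked fit recovered 61.2%, 76.1% and 97.0%, making 36. The simulated counts were drawn independently for each library, with no effect of replicate number. They therefore cannot show what the block does, and recovery in the real, paired libraries may differ. In the real libraries Ankrd31, at 55.9% of its wild-type mean in knockout, did not pass without the block. Recovery of differences below 1.5 fold, such as that of Fzd2 (knockout at 78.1% of wild type), was not tested.

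The members and lists were chosen with earlier results of these data known. Named genes were the 10 members, list genes that passed (0 did), and the 10 other list genes with the smallest unadjusted p; genes of like profile were the 3 nearest to Fzd2, Wnt6 and Axin2, of which 1 is not reported here.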

Additional observations from a re-analysis of the deposited data

How the results depend on the processing

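Over all genes, edgeR called 0 of 18040, with 374 at an unadjusted p under 0.05, and limma voom called 0 with 382. The count was 8 with the replicate block, 1 without a filter on low counts and 2 with DESeq2 (242 unadjusted). It was 63 without pair 1 and 57 without pair 2 in the blocked fit, and 0 without pair 3. Leaving out 1 library left it at 0 each time, while the genes at an unadjusted p under 0.05 ran from 268 without wild-type replicate 2 to 1531 without wild-type replicate 1. Genes of the Wnt list were called 0 times under all 17 alternatives. The block changed no call on a member or list gene. The median log2 fold change of the list ran from -0.090 (without wild-type replicate 1) to -0.010 (without wild-type replicate 3) when 1 library was left out; the cause was not tested. The count of list genes below 0 ran from 47 of 88 without wild-type replicate 3 to 69 of 87 without wild-type replicate 1. Of 170 member values under the alternatives, rounded to 2 decimals, 8 were 0 or had the opposite sign to the one reported. These were 4 for Ctnnb1, 2 for Fzd1 and 1 each for Sfrp1 and Axin2. For Ctnnb1 the value without wild-type replicate 2 was 0.01, and the others of its 4 were 0. Fzd2 stayed between -0.42 and -0.28, Wnt6 between -0.36 and -0.05, Wnt4 between -0.44 and -0.06, and Lef1, with 1 library left out, between 0.04 and 0.21. Leaving out 1 library breaks up a pair. Without the whole of pair 3, in the blocked fit, Wnt4 was at -0.13 ± 0.21 (SE), Wnt5a at -0.14 ± 0.09 and Sfrp1 at -0.01 ± 0.09. In that fit Fzd1 was at 0.20 ± 0.10 and Fzd7 at -0.18 ± 0.07. Among the members, depth limits Wnt4 and Lef1, which had 55 to 147 counts a library.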

Other observations

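Most members had a larger spread among wild-type than among knockout libraries, in some of them through a single library. The SD of CPM was larger in wild type for 8 of 10 members, for 53 of 86 tested genes of the Wnt list (61.6%) and for 57.8% of all 18040 tested genes. Fzd2 had an SD of 0.145 CPM in knockout and 2.67 CPM in wild type, Sfrp1 3.77 CPM in knockout and 17.2 CPM in wild type, Wnt6 9.85 CPM in knockout and 28.6 CPM in wild type, and Wnt4 0.176 CPM in knockout and 0.918 CPM in wild type (n = 3 each). The wild-type SDs of Wnt4 and Sfrp1 came largely from wild-type replicate 3, and that of Wnt6 from wild-type replicate 2. With 3 libraries a group these SDs are themselves imprecise, and no test was run on them.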
